A study of Mus musculus with 4 samples.

Results

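This account compares the RNA-seq library labelled 20 h of LPS with the library labelled no LPS, gene by gene. Its members are the 11537 genes, of 39056 in the count table, that reached at least 1 CPM (reads of the gene relative to the scaled total of the library) in either library after scaling. That level corresponds to 28.3 reads in the no-LPS library and 27.7 reads in the 20 h library. Of the members, 11256 reached it in both libraries, 107 in the no-LPS library alone and 174 in the 20 h library alone. The bound is soft, since 107 genes lay between 1 and 1.1 CPM and 159 genes lay just under it, between 0.9 and 1 CPM.

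The study is on lung vessels after injury by LPS. It used reporter mice in which GFP marks cells that express S1PR1. Cells that were GFP-positive, CD31-positive and CD45-negative were sorted from lung, and poly(A) RNA was sequenced. The treated mice received LPS at 10 mg/kg into the peritoneum, and labels give 0, 8, 16 and 20 h, with 1 library each. All 4 libraries share the reporter, the tissue, the sort and the oligo-dT selection. The sources used here give neither age nor sex, nor the number of animals behind each library. The 8 h and 16 h libraries are used here only to show where a gene stood in the rest of the series.

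LPS is a component of the outer membrane of Gram-negative bacteria. It is sensed through TLR4 and its partner MD-2, and the signal reaches NF-kB, AP-1 and interferon factors, which turn on cytokines, chemokines and adhesion molecules. S1PR1 is a receptor for the lipid sphingosine 1-phosphate and is known for keeping the endothelial barrier closed. Jun, Fos, Egr, Klf and Ier genes are immediate-early genes, whose short-lived transcripts are made within minutes of many stimuli, cell dissociation among them.

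The libraries did not carry the transcripts that define the labelled cell type. Read counts are given throughout in the order no LPS, 8 h, 16 h and 20 h. Pecam1, which encodes CD31, the antigen of the sort, had 7, 2, 2 and 1 reads, and Cdh5, the cadherin of endothelial junctions, had 5, 6, 6 and 9. No read fell on Erg or Emcn in any library, which allows up to 0.106 CPM in the no-LPS library and 0.108 CPM in the 20 h library. Of 22 pan-endothelial markers 7 were measured, and their summed level was 142 CPM in both libraries of the pair. Markers of fibroblasts and mesenchyme summed to 4425 CPM in the no-LPS library and 4562 CPM in the 20 h library, most of it from Vim, an intermediate filament gene, although Col1a1, the main fibroblast collagen, had 2, 3, 4 and 0 reads. S1pr1 itself had 27, 87, 79 and 29 reads. The cells are therefore called by their labels only.

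The pair was nearly alike. Totals were 28060685 reads in the no-LPS library and 27566454 in the 20 h library, and 10535 of the 11537 genes (91.3%) were within 1.25-fold of each other. The median log2 ratio was -0.00, with a standard deviation across genes of 0.21. Log2 ratios are those of the scaled counts with a prior count of 2 added, and a positive value means a higher level in the 20 h library. A fold is the plain ratio of scaled counts, printed with its exact 95% counting interval in brackets.

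With 1 library a side there is no replicate check and no test, so genes were sorted by size. A gene was called higher or lower if its fold was at least 2, its counting interval excluded 1 and it had at least 1 CPM in the higher library. By this rule 65 genes (0.563%) were higher in the 20 h library and 12 (0.104%) were lower. With a fold of at least 1.5 and the same demands on interval and level, 203 (1.76%) were higher and 33 (0.286%) lower. Genes said below to pass 1.5-fold, or to be 1.5-fold higher or lower, met all of these demands. At a fold of at least 4, 9 genes (0.078%) were higher and none was lower. These calls compare 2 libraries, not 2 conditions. The counting interval alone excluded 1 for 3121 genes (27.1%), so the libraries differ by more than counting error over much of the table, mostly by small amounts. Among genes of at least 100 CPM, 98.8% were within 1.25-fold, yet 44.0% of their intervals excluded 1.

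The comparison of the 16 h with the 8 h library shares no library with this pair. There the same rule called 19 of 11445 genes higher (0.166%) and 9 lower (0.0786%), at 1.5-fold it called 54 higher (0.472%) and 38 lower (0.332%), and intervals excluded 1 for 10.8%. The spread of log2 ratios was wider in the 20 h pair at every level. It was 0.38 against 0.35 for genes of 1 to 3 CPM and 0.10 against 0.04 for genes of at least 100 CPM.

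**Figure D1:**
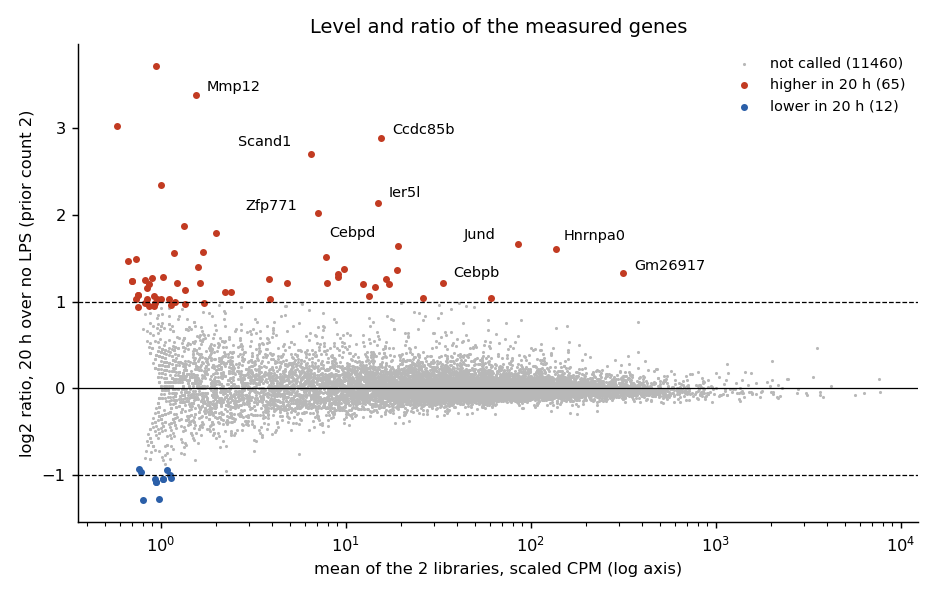
Each point is 1 of the 11537 measured genes, with the mean level of both libraries in scaled CPM on a log axis and the log2 ratio of 20 h over no LPS on the vertical axis. Red marks the 65 genes called higher and blue the 12 called lower, and dashed lines mark a log2 ratio of 1 and -1, which a few called genes of low level miss because the call uses the fold without a prior count. Red points run up to the level of Gm26917, while all blue points lie at the low end.

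The genes that stood furthest above no LPS at good depth included several regulators of transcription. Ccdc85b, whose product binds transcription factors and represses them, had 103, 206, 261 and 760 reads, a fold of 7.53 [6.12 to 9.34]. Scand1, a short protein built around a SCAN dimerisation domain, had 47, 31, 44 and 312 reads, a fold of 6.77 [4.97 to 9.41]. Both were highest in the 20 h library by a wide margin, and Ccdc85b was also higher at 8 and 16 h than without LPS. What the leading genes share is visible in their coding sequences, which are very rich in G and C and in CG dinucleotides. The first 150 bases of 6 coding sequences are shown for that reason, from the GENCODE M21 transcripts of build GRCm38, with CG dinucleotides in capitals. Ccdc85b and Scand1 are the highest protein-coding genes of at least 100 reads, and Socs1 and Socs4 are members of 1 family, each with its coding sequence in a single exon, of which the former was called and the latter was not. Tmem156 and Atp2a3 are the lowest protein-coding genes of at least 100 reads at a fold of 1.5, since no gene called lower at 2-fold had that many. The last 4 were chosen after their values were seen.

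Ccdc85b: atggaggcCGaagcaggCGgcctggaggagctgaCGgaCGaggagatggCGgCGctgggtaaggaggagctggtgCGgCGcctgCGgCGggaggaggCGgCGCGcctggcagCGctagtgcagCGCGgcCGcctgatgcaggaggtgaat

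Scand1: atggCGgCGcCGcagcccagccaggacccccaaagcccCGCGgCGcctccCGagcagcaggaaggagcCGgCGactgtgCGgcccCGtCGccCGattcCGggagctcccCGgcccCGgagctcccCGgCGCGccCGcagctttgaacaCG

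Socs1: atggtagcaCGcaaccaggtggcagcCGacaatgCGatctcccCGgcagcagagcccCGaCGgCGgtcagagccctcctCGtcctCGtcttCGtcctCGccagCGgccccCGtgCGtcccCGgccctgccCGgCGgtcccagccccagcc

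Socs4: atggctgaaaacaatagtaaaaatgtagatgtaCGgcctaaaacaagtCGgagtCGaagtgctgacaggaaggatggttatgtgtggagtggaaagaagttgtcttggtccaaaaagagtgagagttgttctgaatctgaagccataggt

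Tmem156: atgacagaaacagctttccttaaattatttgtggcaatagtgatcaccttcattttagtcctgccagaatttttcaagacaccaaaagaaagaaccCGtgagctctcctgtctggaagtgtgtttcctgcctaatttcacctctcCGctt

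Atp2a3: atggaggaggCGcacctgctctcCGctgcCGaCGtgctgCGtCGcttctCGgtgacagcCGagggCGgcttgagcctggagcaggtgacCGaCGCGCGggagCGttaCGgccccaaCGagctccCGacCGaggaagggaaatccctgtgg

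Ccdc85b lies on chromosome 19, 5453180 to 5457894, minus strand, and Scand1 on chromosome 2, 156311847 to 156312704, minus strand. Socs1 lies on chromosome 16, 10782240 to 10785536, minus strand, and Socs4 on chromosome 14, 47276931 to 47296102, plus strand. Tmem156 lies on chromosome 5, 65054346 to 65092132, minus strand, and Atp2a3 on chromosome 11, 72961169 to 72993044, plus strand. In these stretches GC content was 72.0% in Ccdc85b with 17 CG dinucleotides, 77.3% in Scand1 with 21 and 73.3% in Socs1 with 17. It was 42.0% in Socs4 with 3 CG dinucleotides and 41.3% in Tmem156 with 2. Atp2a3, lower in the 20 h library, breaks the pattern at its start, with 68.7% GC and 18 CG dinucleotides, although its whole coding sequence of 3078 bases has 57.7% GC.

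A further 6 genes passed 2.8-fold at that depth, and all but Rpl27 had coding GC above 69%. Ier5l, an immediate-early response gene, had 155, 154, 204 and 676 reads, a fold of 4.45 [3.73 to 5.33]. Zfp771, a zinc finger gene, had 78, 71, 69 and 316 reads, a fold of 4.13 [3.22 to 5.37]. Neither gene's 8 h or 16 h level came near its 20 h level. Jund, a subunit of the AP-1 transcription factor, had 1158, 745, 878 and 3588 reads, a fold of 3.16 [2.96 to 3.38]. Cebpd, a C/EBP factor known from the acute phase response, had 263, 115, 118 and 806 reads, a fold of 3.13 [2.72 to 3.61]. Both were lower at 8 and 16 h than without LPS, so 20 h was the only one of the 3 LPS labels above the no-LPS level. Hnrnpa0, an RNA-binding protein of messenger RNA stability, had 1909, 2246, 2667 and 5712 reads, a fold of 3.05 [2.90 to 3.22]. Rpl27, a protein of the large ribosomal subunit, had 113, 159, 218 and 320 reads, a fold of 2.89 [2.33 to 3.61], with a coding GC of only 52.9%. Ribosomal protein genes have many processed copies in the genome, so the authors' counting could split their reads, and this value is uncertain.

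The remaining genes of at least 100 reads lay between 2 and 2.7-fold. Ppp1r35, a centriole protein, had 154, 181, 221 and 394 reads, a fold of 2.61 [2.16 to 3.17]. Tpgs1, of the tubulin polyglutamylase complex, had 149, 119, 164 and 359, a fold of 2.46 [2.03 to 3.0], and H2afj, a replication-independent histone H2A, had 275, 303, 360 and 646, a fold of 2.40 [2.08 to 2.77]. In each the 20 h library was above the other 3. Eva1b was the exception, with 63, 195, 208 and 151 reads, so that both middle libraries exceeded the 20 h library. Ndufaf8, an assembly factor of respiratory complex I, had 134, 118, 158 and 308 reads, a fold of 2.35 [1.91 to 2.90]. Gdf15, a stress-induced secreted factor of the TGF-beta superfamily, had 250, 189, 225 and 553 reads, a fold of 2.26 [1.94 to 2.63]. Pgp, a phosphoglycolate phosphatase, had 294, 300, 374 and 665 reads, a fold of 2.31 [2.01 to 2.66], and Trir had 1127, 955, 985 and 2271, a fold of 2.06 [1.91 to 2.21]. Snrpf, a core protein of spliceosomal snRNPs, had 484, 528, 662 and 975, a fold of 2.06 [1.84 to 2.30], and it shared with Rpl27 a coding GC below 60%, at 48.8%. Just outside the 2-fold bound stood Junb at 1.99, Rnaseh2c at 1.98 and Zfp580 at 1.98, and just inside it Snrpf and Trir.

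**Figure D2:**
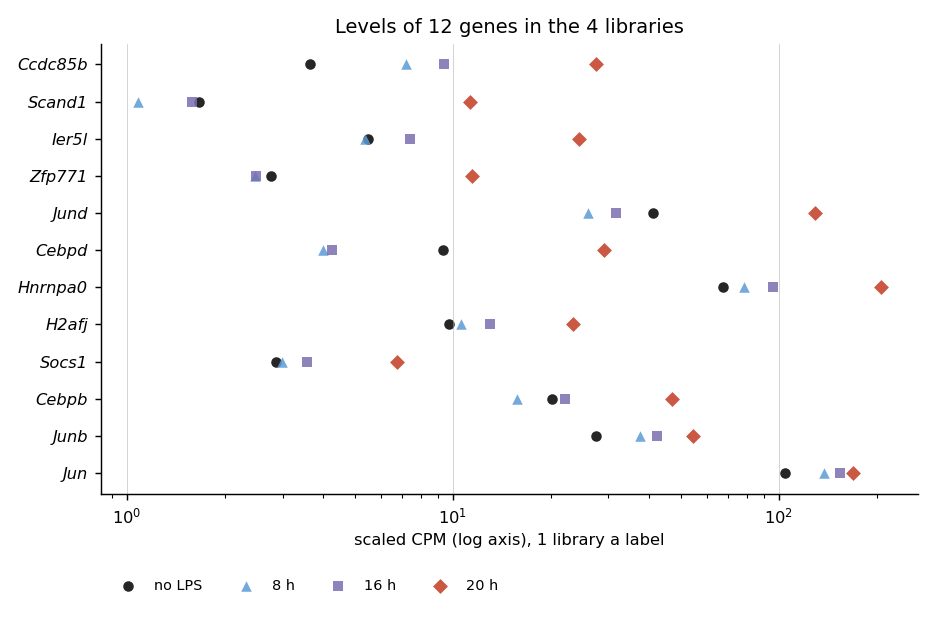
Scaled CPM of 12 genes on a log axis, 1 point per library, with black circles for no LPS, blue triangles for 8 h, purple squares for 16 h and red diamonds for 20 h. The red diamond is the rightmost point in all 12 rows. For Scand1, Ier5l, Zfp771, Jund, Cebpd and Cebpb the 8 h point lies to the left of the no-LPS point, only slightly so for Ier5l.

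In the series as a whole the 20 h library was the highest of the 4 for 58 of the 65 higher genes and at least 2-fold above each other library for 29 of them. These counts were largely fixed by the call, which already requires 20 h to exceed no LPS. Of all 11537 measured genes, 3137 were highest in the 20 h library. The 29 genes at least 2-fold above each other library were the only ones among all measured genes. Only 25 of the 65 genes had at least 100 reads in either library. Of the 23 protein-coding genes among them, 21 (91.3%) had a coding GC of at least 60%, 18 (78.3%) of at least 65%, and 10 (43.5%) had their coding sequence in 1 exon. Among all measured protein-coding genes those shares were 11.4%, 2.07% and 4.98%. The other 40 genes had a median of 37 reads in the higher library and were less extreme, with 12 of 27 protein-coding genes (44.4%) at 60% or more.

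The log2 ratio was flat over most of the range of GC content and turned up only at its high end. With the genes split into 10 equal bins by GC content of the longest transcript, medians lay between -0.03 and 0.02 in the lower 9 bins. In the top bin, 58.0% to 74.2% GC, the median was 0.12, and 84 of 1153 genes (7.29%) were at least 1.5-fold higher. In the comparison of 16 h with 8 h the median of that bin was -0.00. Across 11527 genes with an annotated transcript, Spearman's correlation of the log2 ratio with GC content was 0.177, against -0.064 for 16 h over 8 h. Genes of 1 library pair share its preparation and depth, so these correlations are descriptions.

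The rise was steeper for the coding sequence than for the transcript. Of 3826 genes with under 50% coding GC, 17 (0.444%) were 1.5-fold higher and the median log2 ratio was -0.01. Between 60% and 65%, 43 of 1024 genes (4.20%) were higher with a median of 0.14, and between 65% and 70%, 50 of 172 (29.1%) with a median of 0.32. At 70% or more it was 20 of 54 genes (37.0%) with a median of 0.46. Of the 226 genes at 65% or more, 206 (91.2%) had a ratio above 1, against 5361 of all 10944 measured protein-coding genes (49.0%), and 1 was lower at 1.5-fold. The same 226 genes took 0.552% of all reads in the no-LPS library and likewise in the 8 h library, 0.572% in the 16 h library and 0.690% in the 20 h library. The relation was loose for single genes, and at 65% or more the log2 ratios ran from -0.68 to 3.72.

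CG dinucleotides followed the ratio most closely of the properties computed. Spearman's correlation over 10943 protein-coding genes was 0.316 for CG dinucleotides per 100 coding bases, 0.238 for coding GC and 0.081 for the GC content of the last 500 bases of the transcript. For 16 h over 8 h they were 0.021, -0.045 and -0.063. In the top of 10 bins by CG density, from 5.41 to 16.2 per 100 bases, 111 of 1094 genes (10.1%) were at least 1.5-fold higher with a median of 0.16. Restricted to 8751 genes of at least 10 CPM, the correlation with CG density was 0.352, so it did not rest on genes of few reads.

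**Figure D3:**
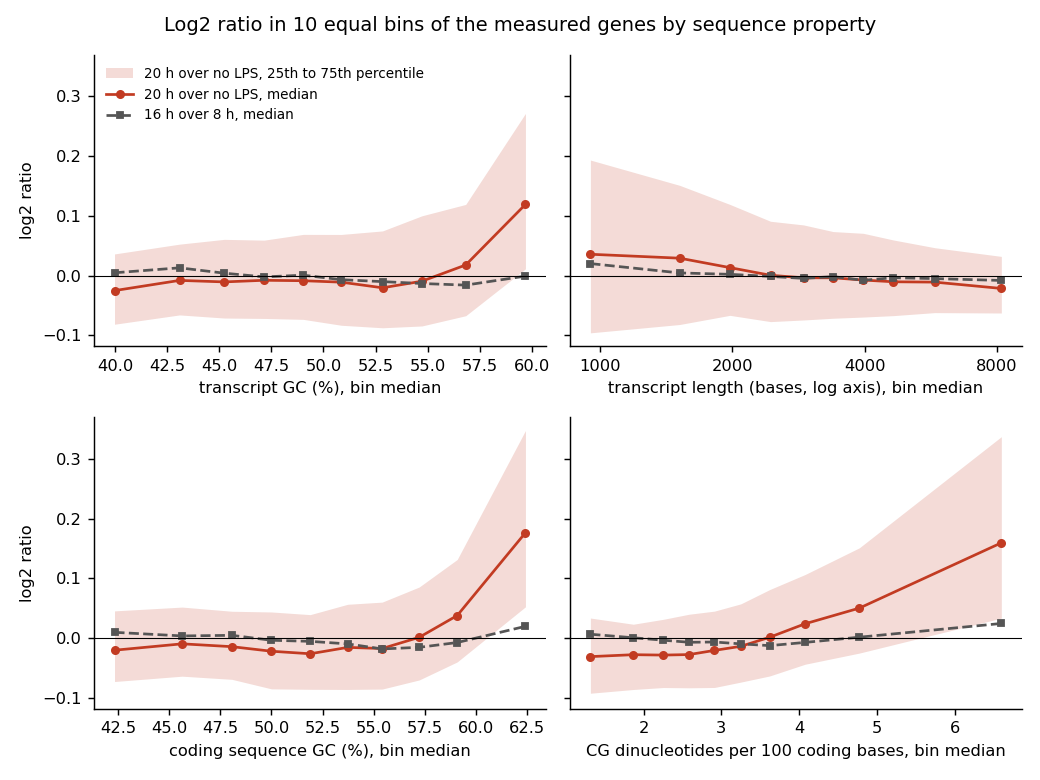
Median log2 ratio (points and lines) in 10 equal bins of the genes ordered by transcript GC, transcript length, coding GC and CG dinucleotides per 100 coding bases, each bin placed at its median. Red is 20 h over no LPS, with a band from the 25th to the 75th percentile, and grey dashes are 16 h over 8 h. The red line reaches 0.12 in the top bin of transcript GC and 0.18 in that of coding GC, while the grey line stays within 0.03 of 0 in all 4 panels.

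Length ran the other way and more weakly. The bin of the shortest transcripts, 111 to 1262 bases, had a median of 0.04 with 73 genes (6.32%) at least 1.5-fold higher, and that of the longest, 6693 to 123179 bases, a median of -0.02 with 5 (0.434%). Spearman's correlation with length was -0.103, and -0.064 for 16 h over 8 h. Short transcripts have fewer reads at a given level per base, and the spread of ratios was wider there in both directions. GC content and length were not separable by either alone. In a grid of 4 by 4 classes, 81 of 987 genes (8.21%) with the highest GC and the shortest transcripts were 1.5-fold higher, whereas it was 5 of 400 (1.25%) among the longest of the same GC class and 12 of 434 (2.76%) among the shortest of the lowest GC class.

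Genes with 1 coding exon stood higher as a class, and how far this held depended on the class of coding GC. Of 545 such genes, 51 (9.36%) were 1.5-fold higher, against 7 of 1424 (0.492%) with more than 20 coding exons. Among genes with 1 coding exon and a coding GC under 50% it was 1 of 141, with a median log2 ratio of -0.02, and at 70% or more it was 15 of 40 (37.5%), with a median of 0.47. Between 65% and 70% the share was 31.9% for 1 exon, 27.9% for 2 to 3 and 28.8% for 4 to 10, and it was 1 of 5 genes for 11 or more. Between 60% and 65% the share was 17.3% for 1 exon, 5.31% for 2 to 3, 2.66% for 4 to 10 and 1.12% for 11 or more. With 1 library a side, the time after LPS, the animals and the preparation of the library cannot be told apart in any of these relations.

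**Figure D4:**
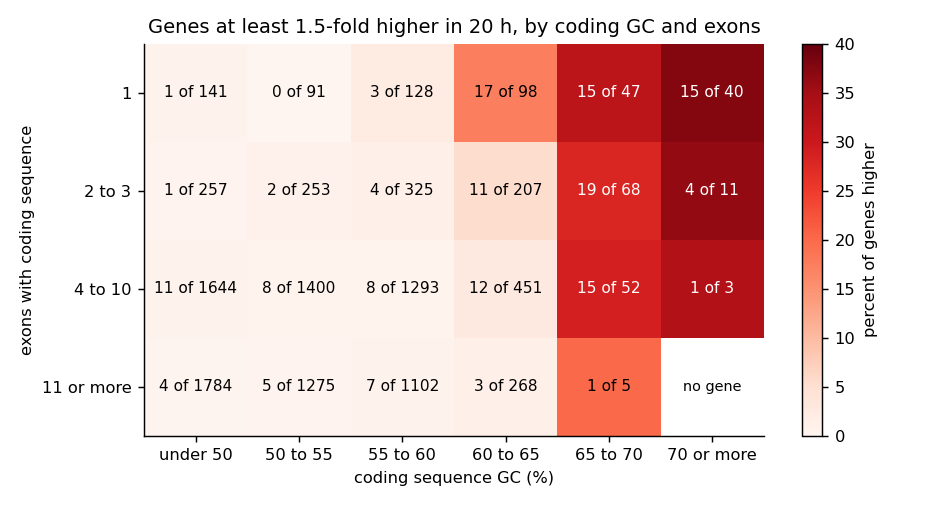
Rows are classes by number of exons with coding sequence, columns are classes by GC content of the coding sequence, and colour is the percent of genes at least 1.5-fold higher in the 20 h library, with the counts written in. Shares are highest in the columns of 65% GC and above in every row, with 15 of 40 genes in the upper right corner, and 1 class holds no gene.

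The families of the leading genes divided in the same way. The families were chosen after values were seen and get no test. Of the 8 AP-1 members examined, all measured, Jund, Junb and Jun were at least 1.5-fold higher, at 3.16, 1.99 and 1.62. Junb had 775, 1078, 1175 and 1508 reads and Jun 2950, 3956, 4271 and 4680, so for these the 8 h and 16 h libraries lay in between. Their coding GC was 63.2% to 70.7%. The other 5 (Fos, Fosb, Fosl1, Fosl2 and Atf3) had coding GC of 51.0% to 62.2% and folds of 0.958 to 1.21.

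Among 6 C/EBP genes Cebpd and Cebpb were higher. Cebpb, a partner of NF-kB in inflammatory gene expression, had 568, 452, 610 and 1298 reads, a fold of 2.33 [2.11 to 2.58], with a coding GC of 73.4%. Cebpa breaks the pattern, since its coding GC is 71.9% but its reads were 101, 82, 85 and 125, a fold of 1.26 [0.964 to 1.66]. Cebpg and Cebpz, at 50.7% and 44.3% coding GC, had folds of 1.04 and 1.0, and Cebpe had no reads.

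In the SOCS family, the feedback inhibitors of cytokine receptors, Socs1 alone was called, with 81, 86, 99 and 187 reads, a fold of 2.36 [1.81 to 3.10]. Socs3, the usual reporter of STAT3 signalling, had 514, 665, 658 and 610 reads, a fold of 1.21 [1.08 to 1.36]. Socs4, whose sequence is shown above beside that of Socs1, had 2827, 2168, 2124 and 2681 reads, a fold of 0.968 [0.918 to 1.02]. The coding GC was 69.8% in Socs1 and 44.7% to 62.2% in the other 6.

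Of 12 Kruppel-like factors measured, Klf2 alone passed 1.5-fold. Klf2, which laminar flow induces in endothelium, had 124, 384, 357 and 229 reads, a fold of 1.88 [1.51 to 2.36], so the 8 h and 16 h libraries were higher still. Klf13 and Klf16 have the same high coding GC, 71.5% and 71.0%, and folds of 1.01 [0.922 to 1.1] and 1.14 [1.06 to 1.22]. Ier5 is another such gene, at 71.9% coding GC with a fold of 1.42 against 4.45 for Ier5l.

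Hnrnpa0 was set apart from its relatives. Hnrnpa1, Hnrnpa2b1 and Hnrnpa3, abundant regulators of splicing with 45.7% to 49.9% coding GC, had folds of 0.864, 0.964 and 0.958. Of 10 variant histone genes, H2afj, H2afx and H1fx were higher, all with 1 coding exon and 68.5% to 69.9% coding GC. H2afx, the histone marked at DNA breaks, had 722, 476, 580 and 1339 reads, a fold of 1.89 [1.73 to 2.07]. H1fx had only 9, 27, 27 and 28 reads, and its fold of 3.18 [1.46 to 7.65] came from a low value without LPS. The other 7, among them H2afz and H3f3b, had folds of 0.919 to 1.23.

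**Figure D5:**
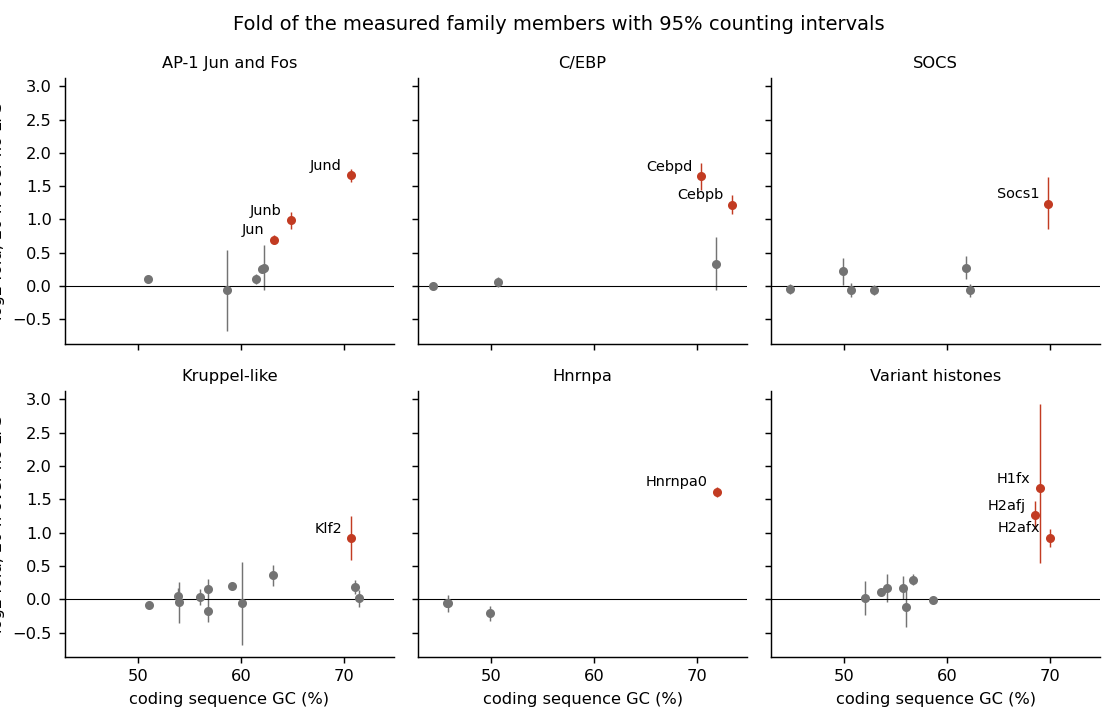
Each panel is a gene family, with the GC content of the coding sequence on the horizontal axis, log2 fold of 20 h over no LPS on the vertical axis and bars for the 95% counting interval. Red points with names were at least 1.5-fold higher, and grey points were not. The IER and Ccdc85 families are not drawn. Red points lie at 63.2% GC or above, and the grey points at 71.0% GC or more are Klf13, Klf16 and Cebpa.

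Across 37 lists of pathway genes, 29 had no call at 2-fold, 22 had none at 1.5-fold and 36 had no lower gene at 1.5-fold. Over all measured genes 0.563% were higher and 0.104% lower at 2-fold, and 1.76% and 0.286% at 1.5-fold. A list without a call, here and below, therefore says little about its genes. Medians of 34 lists lay within 0.1 of 0 on the log2 scale, where the median of all measured genes was -0.00. The list with the most calls at 1.5-fold was that of 29 measured immediate-early factors, with 6 (20.7%) against 1.76% of all genes. They were Jund, Junb, Jun, Klf2, Ier2 and Gadd45b. Its median log2 ratio was 0.12, 24 of its members had a ratio above 1, and its median coding GC of 61.9% compares with 52.8% over all measured genes. Egr1, on the same list, had 257, 1658, 1666 and 261 reads, a fold of 1.04 [0.869 to 1.24], so its high level at 8 and 16 h was not shared by the 20 h library.

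The lists closest to LPS showed few calls, apart from 1 list. Calls were few over all measured genes as well, with 1.76% higher at 1.5-fold. Of 26 measured genes of LPS sensing and NF-kB, 1 was higher at 1.5-fold, Ly96, which encodes the TLR4 partner MD-2, with 45, 47, 59 and 78 reads, a fold of 1.77 [1.21 to 2.61]. The median of the LPS sensing and NF-kB list was 0.02. None of 12 measured chemokines and cytokines, 15 interferon-stimulated genes or 17 adhesion and activation genes was called at 1.5-fold. Their medians were 0.02, -0.03 and 0.01. At a share of 1.76%, lists of this size often hold no call. Cxcl2, a neutrophil chemokine that NF-kB induces, had 70, 22, 42 and 86 reads, a fold of 1.25 [0.904 to 1.74]. Among 18 genes of MHC class I and peptide loading, Tapbpl alone was higher, at 1.5. In the list of 19 measured STAT3 and acute phase genes, Cebpd, Cebpb, Socs1 and Junb (21.1%, against 1.76% of all measured genes) passed 1.5-fold. The median log2 ratio of that list was 0.02. Coding GC was 64.8% to 73.4% in these 4 genes, against a list median of 53.3%. Of all measured genes with coding GC of at least 65%, 31.0% passed 1.5-fold. Stat3 itself had 1585, 2232, 2092 and 1573 reads, a fold of 1.01 [0.944 to 1.09].

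None of 18 measured genes of sphingosine 1-phosphate signalling was called. S1pr1, the gene of the reporter, had a fold of 1.1, with an interval of 0.626 to 1.92 that is wide because it had under 30 reads in either library of the pair. Sphk1, a kinase that makes sphingosine 1-phosphate, had 42, 180, 179 and 56 reads, a fold of 1.36 [0.896 to 2.08]. Spns2, the transporter that exports it, had 35, 260, 250 and 20 reads, a fold of 0.583 [0.319 to 1.04]. All 3 had their lowest values in the pair described here, and within the pair their intervals included 1, so a difference was not detectable at this depth.

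Division and lipid genes were close to equal. None of 32 G2/M genes and 28 G1/S genes was called, with medians of -0.02 and -0.06. Summed levels without LPS and at 20 h were 2078 and 2056 CPM for G2/M, and 2819 and 2752 CPM for G1/S. The ratio was below 1 for 20 of the G2/M genes and 23 of the G1/S genes, against 5886 of all 11537 measured genes. Aurka, a mitotic kinase, had 692, 1511, 1495 and 578 reads, a fold of 0.852 [0.762 to 0.953]. None of 23 sterol synthesis or 14 fatty acid synthesis genes was called either, nor any of 28 lysosomal hydrolases, of which 24 had a ratio below 1 within a narrow range, down to a log2 ratio of -0.12. The lowest list median, -0.13, was that of 11 RNA polymerase II subunits, none of them called. Polr2c had 1112, 1171, 1171 and 917 reads, a fold of 0.842 [0.770 to 0.919]. No gene was called at 1.5-fold among those of the ATF4 response, the unfolded protein response, heat shock, glycolysis, NRF2 or the proteasome. The same held for the V-ATPase, collagens, contractile proteins, YAP targets and the clock. Uncalled genes could still reach that fold, as did Atp6v0d2 of the V-ATPase. It had 39, 41, 41 and 58 reads, a fold of 1.52 [0.994 to 2.34]. Fth1, the ferritin heavy chain on the NRF2 list, was among the most abundant, with 83306, 59545, 61071 and 112959 reads and a fold of 1.38 [1.37 to 1.40].

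Ribosomal and mitochondrial genes gave a handful of calls each, to be read against the 1.76% of all measured genes that were 1.5-fold higher. Of 78 measured cytosolic ribosomal protein genes 4 (5.13%) passed 1.5-fold (Rpl27, Rps27, Rpl10a and Rps2), and the list's median was 0.02. Rps2 had 8002, 9904, 9369 and 13297 reads, a fold of 1.70 [1.65 to 1.74]. Of 76 mitochondrial ribosomal proteins 4 (5.26%) passed (Mrpl57, Mrpl34, Mrpl52 and Mrps24), at folds of 1.56 to 1.82. Of 87 nuclear genes of oxidative phosphorylation 3 (3.45%) were called at 1.5-fold. Besides Ndufaf8 these were Cox5b, with 614, 687, 852 and 1172 reads and a fold of 1.95, and Cox8a, with 1839, 2170, 2318 and 3122 reads and a fold of 1.73, both subunits of cytochrome c oxidase. For both, levels at 8 and 16 h lay between those of the pair. None of 7 measured mitochondrially encoded genes was called, and they took 1.80% of reads without LPS and 1.90% at 20 h. Among 24 p53 targets and CDK inhibitors, Gdf15 and Bbc3, the apoptosis regulator PUMA, passed 1.5-fold (8.33%), and of 296 zinc finger genes of the Zfp series 5 (1.69%) were higher, a share near that of all genes, and 1 was lower. Id1, a BMP target, had 372, 380, 469 and 628 reads, a fold of 1.72 [1.51 to 1.96], and was the only one called of 10 BMP and Id genes.

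A small set of higher genes did not have GC-rich coding sequences and codes for proteins known from macrophages and other leukocytes. Mmp12, the macrophage elastase, had 6, 12, 135 and 80 reads, a fold of 13.6 [5.98 to 38.2], with a coding GC of 43.5%. Cd36, a scavenger receptor, had 15, 24, 110 and 59 reads, a fold of 4.01 [2.25 to 7.62]. For both the 16 h library was the highest, above 20 h. Mmp9, a gelatinase, had 13, 16, 34 and 33 reads, Ear2, an eosinophil-associated ribonuclease, had 20, 21, 28 and 48, and Siglec1, a sialic acid receptor of macrophages, had 17, 22, 21 and 35. Cd53, a leukocyte tetraspanin, had 14, 24, 24 and 34 reads. Coding GC in this set ran from 41.5% to 58.4%. Mmp9, at 58.4%, and Siglec1, at 58.0%, lay above the median of 52.8% over all measured genes. All are counts of under 150 reads, and these genes were put side by side after their values were seen. Each was under 1 CPM without LPS, so each entered the measured genes only through the 20 h library.

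The whole marker lists stand beside these genes. Of 15 macrophage markers 6 were measured, 5 of them had a ratio above 1, and 1, Cd36, was called. The list's median log2 ratio was 0.25, against -0.00 over all measured genes. Cd36, at 0.531 CPM without LPS and 2.13 CPM at 20 h, was measured only through the 20 h library. The filter therefore tilts this count and median upward. Its summed level was 146 CPM without LPS and 154 CPM at 20 h. Cd68, a lysosomal protein of macrophages and the 1 measured marker with a ratio below 1, gave most of that sum with 2818, 1910, 1718 and 2675 reads, a fold of 0.969 [0.919 to 1.02], while Adgre1, which encodes F4/80, had 12, 31, 77 and 24 and Csf1r had 9, 15, 30 and 26. Of 12 leukocyte markers 7 were measured and 1, Cd53, was called, with sums of 33.2 and 36.5 CPM, and Ptprc, which encodes CD45, had 42, 37, 31 and 38 reads. The sum for neutrophil markers was 1.38 and 1.08 CPM, with 4 of 8 at 0 in each library, and for lymphocyte markers 0.354 and 0.144 CPM, with 8 and 11 of 12 at 0. Lung epithelium summed to 97.8 and 99.6 CPM, smooth muscle and pericytes to 9.16 and 8.81, mesothelium to 4.88 and 5.45, and erythroid cells and platelets to 4.28 and 3.83. A few more cells of a type and more RNA per cell cannot be told apart in bulk samples, and the part of other cells in these values was not tested.

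The genes lower in the 20 h library were few and thinly covered. None of the 12 had more than 44 reads in either library, and none passed at the stricter interval level. Pabpc1l, a poly(A)-binding protein of oocytes, had 33, 11, 8 and 12 reads, a fold of 0.371 [0.175 to 0.737], so all 3 LPS labels lay below no LPS. Slc28a1, a nucleoside transporter, had 44, 5, 1 and 20 reads, Tas2r135, a bitter taste receptor, had 30, 1, 3 and 14, and Hmcn1, a giant matrix protein, had 29, 3, 1 and 14. In these 3 the 8 h and 16 h libraries were far lower than either library of the pair. Myo1a, the brush border myosin, had 37, 39, 23 and 16 reads, Efhb had 40, 29, 27 and 18, Dnah2, an axonemal dynein, had 43, 42, 42 and 20, and Plxnb1, a semaphorin receptor, had 41, 45, 33 and 20. The other 4 are Gm13657, an unclassified transcript, and 3 processed pseudogenes. The 8 protein-coding genes had a median coding GC of 53.6%, near that of all genes, and none reached 60%. At 1.5-fold 33 genes were lower, and 4 of them had at least 100 reads. Of these Tmem156 had 112, 95, 108 and 71 reads, a fold of 0.647 [0.474 to 0.879]. Atp2a3, a calcium pump of the endoplasmic reticulum, had 109, 33, 29 and 70 reads, a fold of 0.655 [0.478 to 0.893].

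Transcripts without a coding sequence held the most abundant call. Gm26917, annotated as a lincRNA, lies on chromosome 17, 39843013 to 39846341, plus strand, with 69.1% GC. It had 5107, 4050, 4514 and 12563 reads, a fold of 2.51 [2.43 to 2.59]. With the trend on transcript GC and length removed its log2 ratio went from 1.33 to 0.09, which ends the call. The trend fitted for Gm26917 was far above the 99th percentile of 0.44, so this loss is uncertain. Its neighbour Gm42418, on chromosome 17, 39846958 to 39848788, which RefSeq lists under the name Rn18s-rs5, a ribosomal RNA related sequence, had 50423, 42542, 39122 and 61458 reads, a fold of 1.24 [1.23 to 1.26]. Whether ribosomal RNA reads entered the counts of Gm26917 or Gm42418 was not tested. The highest log2 ratio of all belonged to a protein-coding gene of few reads. Gm21887, which RefSeq lists under the name Erdr1, had 2, 1, 2 and 50 reads, a fold of 25.5 [6.70 to 216], with a coding GC of 69.9%. Of 252 measured pseudogenes 21 (8.33%) were higher and 7 lower at 1.5-fold, against 167 and 24 of 10944 protein-coding genes, and the spread of pseudogene ratios was wide on both sides. Reads of near-identical copies may have been split by the authors' counting, so these genes are uncertain. Of 18 measured long noncoding and snoRNA-host RNAs 1 was higher, and their median log2 ratio was -0.10, with 4 above a ratio of 1.

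When the trend on GC content and length was removed from every gene's ratio, 37 of the 65 genes remained at least 2-fold higher with an interval above 1, and no others joined them. For protein-coding genes the trend on coding GC and CG density left 40 genes, 39 of them among the 50 called at the start. Among the deeper genes of at least 100 reads, 11 of 25 remained after the first removal and 16 of 23 protein-coding genes after the second. With the trend on transcript GC and length removed, Ccdc85b kept a log2 difference of 2.90, Ier5l 1.67, Cebpd 1.65, Hnrnpa0 1.62 and Scand1 1.12. Zfp771 came to 0.67, Jund to 0.63, Cebpb to 0.15 and Gm26917 to 0.09, all under 2-fold. The surface is steep at the GC-rich end, where the fitted trend was 0.44 at its 99th percentile but reached 3.11. What it took from Scand1, Ier5l, Zfp771, Jund, Cebpb and Gm26917 exceeded 0.44, so these values and lost calls are uncertain. Gm9887, with 30 reads at 20 h, went from 3.02 to -0.09. The drop from 65 to 37 rests in part on that end of the surface. With the trend on coding GC and CG density removed, Ccdc85b kept 2.42, Scand1 1.84, Zfp771 1.79, Ier5l 1.57, Jund 1.22, Hnrnpa0 1.21 and Cebpd 1.21, while Cebpb came to 0.70 and Bbc3 to 0.06. Zfp771 and Jund thus kept their call under the second trend and lost it under the first. Klf13 and Klf16 came to -0.48 and -0.33 under the second. The trends were fitted to the same ratios, so these values describe which genes stand above their sequence class and not which differences are free of it.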

How the data were processed

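Per the submitters' processing notes, the authors used STAR, featureCounts and build mm10. The authors deposited unnormalized whole-number counts per gene, with 1 column per library, matched to samples by column name. Versions, settings, and the handling of strand and of multi-mapping reads are not stated in the sources used. The members and gene lists were chosen with earlier results of these data known.

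Counts were scaled with TMM factors from all 4 libraries (edgeR 4.0.16, R 4.3.3). Each fold has a 95% Clopper-Pearson interval, from the binomial split of a gene's reads between both libraries. It covers counting error only, because it is built from the counts of 1 library a side. Reads carry no molecular identifiers, so duplicate reads could not be set aside. Of the identifiers 99.5% matched GENCODE M21 (GRCm38), and 11527 measured genes did. GC content and length are those of the longest protein-coding transcript, or of the longest transcript of other genes. Trends were loess surfaces (span 0.3). DESeq2 1.42.0 gave alternative size factors only.

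Named genes were the 15 highest and lowest called genes of at least 100 reads, the 10 called genes of largest mean CPM in each direction, up to 4 members per list and a few always shown, such as S1pr1, Egr1 and Klf2. The rankings passed over pseudogenes and genes with model or clone names. The gene families, the macrophage-type genes, identity markers outside the rule, genes with a Gm name and the genes with high coding GC and ratios near 1 were chosen after their values were seen. Some genes that the rule selects are counted only. Alternatives covered scaling, prior count, minimum level, fold, interval level, transcript choice and the removal of trends, and the trend on coding GC and CG density, coding GC, the last 500 bases, coding exons and leaving out copies were added after seeing the data.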

Additional observations from a re-analysis of the deposited data

How the results depend on the processing

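The count of 65 higher and 12 lower genes stayed within 1.5 times under library size, DESeq2, upper-quartile and 2-library TMM scaling, among protein-coding genes only, and without pseudogenes and ribosomal protein genes. It moved to 150 higher and 66 lower genes with no minimum level, 22 and 0 with a minimum of 10 CPM, 203 and 33 at a fold of 1.5, 9 and 0 at a fold of 4, and 40 and 0 with the stricter interval level. It was 37 and 15 with the GC and length trend removed, and 40 and 7 for protein-coding genes with the trend on coding GC and CG density removed. Spearman's correlation of the ratio with GC content, 0.177, came to 0.0743 with the last 500 bases of the transcript, and that with length, -0.103, to -0.0584 with the mean over transcripts, and the other settings changed neither by as much. Of 992 values of single genes under alternatives, 948 moved little, 43 moved and 1 changed sign. That gene was H1fx, from 1.47 to -0.53 with the GC and length trend removed, where the fitted trend reached 2.0 for a gene of 28 reads at the edge of the surface, far above the 99th percentile of 0.44. Of 184 list medians under alternatives 2 moved. No paired analysis was possible because each label has 1 library, and for the same reason no replicate could be left out. Depth limits the low end, where 3 reads are 0.106 to 0.108 CPM and genes of 1 to 3 CPM had a standard deviation of 0.38.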
